A study of Homo sapiens with 6 samples.

Results

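The heat-shock proteins and their J-domain co-chaperones were followed gene by gene in a human breast cancer cell line with and without knockdown of PELP1. Members were taken by symbol alone: every gene listed as HSPA, HSPB, HSPD, HSPE, HSPH, DNAJA, DNAJB or DNAJC with a number, and every symbol that starts with HSP90. The rule found 80 of the 23228 listed genes (0.344%). It uses no measured value, but the members were chosen with earlier results of these data known. Of the 80, 73 carried the name of a gene and 7 that of a pseudogene.

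The cells were MDA-MB-231, a human triple negative breast cancer (TNBC) line grown in RPMI with FBS. There were 3 libraries of cells with a lentiviral shRNA against PELP1 (PELP1-KD) and 3 of cells with a non-targeted shRNA (control), both lines being stable and selected with puromycin. A single PELP1 shRNA was used, and nothing states that the replicates of a group were selected separately, so the p-values measure only the spread between these libraries. Reads were 50 bases long and single.

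Molecular chaperones bind unfolded or misfolded proteins and help them to fold, to cross membranes or to be degraded. HSP70 proteins work in cycles of ATP binding and hydrolysis: J-domain proteins deliver the client and start hydrolysis, and the HSP110 proteins exchange the nucleotide. HSP90 takes over late in folding, with kinases and steroid receptors as known clients, while small HSPs hold unfolded clients without ATP and the chaperonins enclose them in a chamber. Each compartment has its own set, and many of the cytosolic genes are induced by heat shock factors and several of those in the endoplasmic reticulum (ER) by the unfolded protein response.

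Between 17304864 and 23132102 reads per library were counted on genes. Values below are in CPM, the count scaled to a common library size after TMM scaling, and every adjusted p-value is from the quasi-likelihood test of edgeR, adjusted by Benjamini-Hochberg over 12796 tested genes. PELP1 itself was at 57.2, 56.1 and 60.2 CPM in control replicates 1 to 3 and at 28.6, 29.9 and 30.3 CPM in PELP1-KD, a log2FC of -0.97 with an SE of 0.055 (edgeR adjusted p = 1.48e-11). VIM and CD44, high in this mesenchymal-like line, were at 827 CPM or more in every library, and ESR1, PGR and CDH1 stayed at or below 0.225 CPM. The HER2 gene ERBB2 was not near 0, at 109 to 128 CPM, and the epithelial marker EPCAM was at 8.62 to 11.2 CPM. The leukocyte and endothelial markers PTPRC, CD3E and PECAM1 did not pass 0.338 CPM, whereas the fibroblast marker COL1A1 was at 5.13 to 7.08 CPM in control and 16.9 to 19.8 CPM in PELP1-KD cells. As the RNA is from bulk cultures, fewer cells of a type and less RNA per cell cannot be told apart.

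Chaperone mRNA was lower in PELP1-KD cells on balance. Of the 80 members, 65 had enough counts to be tested, 29 were lower, 9 were higher and 27 did not pass an adjusted p of 0.05. Lower members made 44.6% of those tested, where the same call was made for 24.2% of all tested genes. Higher members made 13.8%, against 22.7% of all tested genes. The median log2FC was -0.076 for the members and 0.0014 for all tested genes. Under edgeR 0 members changed beyond 2-fold with an adjusted p below 0.05, and 0 did so at an unadjusted p below 0.05. DESeq2 and limma also called 0, while 3.24% of all tested genes passed that threshold. The closest member, HSPB8, was at a log2FC of 0.97 (95% interval 0.75 to 1.19). Scaling by library totals, dropping the count filter, or leaving out control replicate 3 or PELP1-KD replicate 3 each put 1 member beyond it. Of the 38 members called, 17 had a log2FC smaller than 0.3 in size (44.7%), a share of 52% among all genes called. The control and PELP1-KD libraries did not overlap in 39 members (60%), near the 55% of all tested genes.

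**Figure D1:**
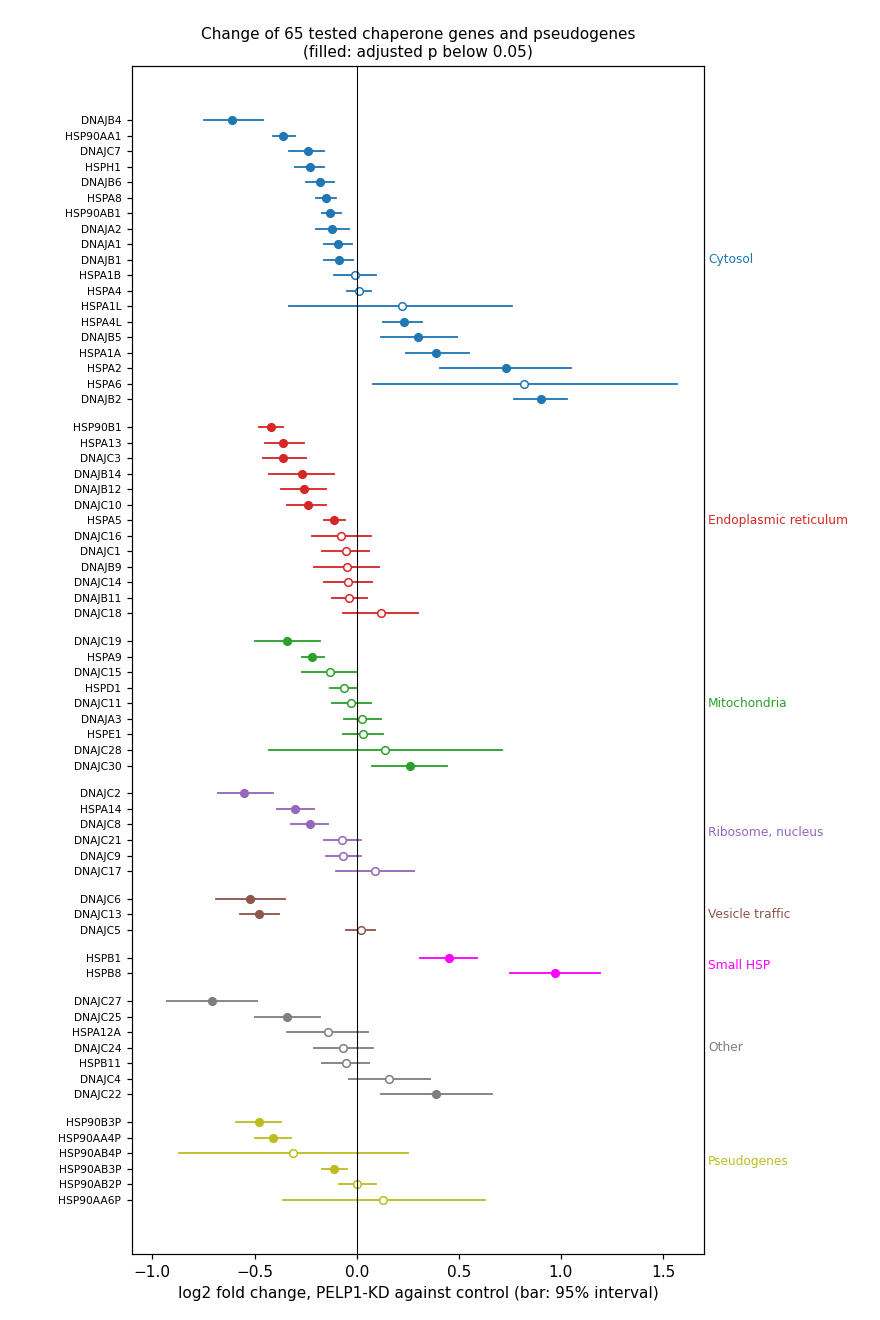
Log2 fold change of PELP1-KD against control for the 65 tested members on the x axis, with 95% intervals as bars, grouped by compartment or role; filled points have an adjusted p below 0.05. Points left of 0 are lower in PELP1-KD: 29 of the filled points lie there and 9 lie to the right, from -0.71 (DNAJC27) to 0.97 (HSPB8).

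In sum, the 80 members took 18890, 18280 and 18001 CPM in the control libraries and 16276, 16018 and 16256 CPM in the PELP1-KD libraries. That sum was 12% lower in PELP1-KD, and the groups did not overlap. HSP90AA1 alone carried 36.4% of the fall. HSP90AA1, HSPA8, HSP90AB1 and HSP90B1 together held 57.7% of the members' CPM in control cells and 74.3% of the fall. The other 76 members went from 7786 ± 149 to 7219 ± 62.8 CPM (SD, n = 3), 7.28% lower.

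All 3 genes with an HSP90 symbol were lower (against 24.2% of all tested genes), and the ER form the most. TRAP1, the mitochondrial HSP90, falls outside the symbol rule. It was at 189 ± 4.92 CPM in control and 190 ± 2.71 CPM in PELP1-KD (SD, n = 3), with overlapping groups. Its log2FC was 0.0065 (95% interval -0.066 to 0.079). HSP90AA1, the stress-inducible cytosolic HSP90, was at 3784, 3621 and 3534 CPM in control and 2890, 2759 and 2881 CPM in PELP1-KD cells, 22% lower (log2FC -0.36, SE 0.026, edgeR adjusted p = 6.04e-10). HSP90AB1, the constitutive cytosolic form, was at 2850, 2766 and 2730 CPM in control and 2556, 2562 and 2530 CPM in PELP1-KD, 8.35% lower (log2FC -0.13, SE 0.023, edgeR adjusted p = 1.26e-04). In both genes every PELP1-KD library lay below every control library. The groups did not overlap in 55% of all tested genes. HSP90B1, which folds integrins and Toll-like receptors in the ER, went from 1308, 1246 and 1234 CPM to 957, 914 and 957 CPM (log2FC -0.42, SE 0.028, edgeR adjusted p = 1.77e-10), the lowest p-value of all members, again with no overlap. The ratio of HSP90AA1 to HSP90AB1 within a library was 1.33, 1.31 and 1.29 in control and 1.13, 1.08 and 1.14 in PELP1-KD cells. A two-sided exact permutation test gave p = 0.1 for this ratio, the smallest that 3 against 3 libraries allow (adjusted p = 0.133 over 4 ratios).

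Promoter windows of HSP90AA1 and HSP90AB1 carry the letters that heat shock factors are known to bind, which the HSP90B1 window lacks. A heat shock element was searched as alternating GAA and TTC units 2 bases apart, either as a pair (GAANNTTC or TTCNNGAA) or as a triplet of such units, on both strands and in the window from 250 bases before to 50 after each start in RefSeq (GRCh38.p14). The triplet, which contains pairs by construction, was in 0.49% of the 35116 windows. It was in 7 of the 83 windows of the 64 members with a window (8.43%). Among them were 1 of the 2 windows of HSP90AA1 and 1 of the 3 windows of HSP90AB1. The HSP90AA1 window with the triplet (chr14:102086995-102087294, minus strand) is printed to show where it lies, in capitals. The HSP90AB1 window with triplets is printed between its matches (chr6:44247778-44247843, plus strand), also in capitals. The match in HSP90AA1 starts 88 bases before the start, and those in HSP90AB1 165 and 112 bases before it.
HSP90AA1: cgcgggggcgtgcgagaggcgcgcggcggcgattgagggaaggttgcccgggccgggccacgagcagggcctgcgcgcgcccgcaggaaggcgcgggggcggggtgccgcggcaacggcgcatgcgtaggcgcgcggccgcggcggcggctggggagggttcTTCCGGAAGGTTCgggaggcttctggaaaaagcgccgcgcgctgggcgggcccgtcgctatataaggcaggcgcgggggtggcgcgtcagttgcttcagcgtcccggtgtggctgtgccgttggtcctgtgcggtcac
HSP90AB1: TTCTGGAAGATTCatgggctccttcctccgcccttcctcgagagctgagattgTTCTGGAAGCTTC

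Of the 6 HSP90 pseudogenes tested, 3 were lower (50%, against 24.2% of all tested genes), as their parent genes were, and 3 did not pass. HSP90AA4P was at 128, 124 and 116 CPM in control and 90.2, 90.8 and 95.6 CPM in PELP1-KD cells (log2FC -0.41, edgeR adjusted p = 1.91e-07). HSP90B3P went from 74.6, 70.7 and 65.9 CPM to 51.7, 50.7 and 49 CPM (log2FC -0.48, edgeR adjusted p = 2.46e-07). In both, as in HSP90AA1 and HSP90B1, the groups lay far apart. HSP90AB3P was 7.34% lower (613 ± 22.5 and 568 ± 4.82 CPM, SD, n = 3), beside 8.35% for its parent HSP90AB1. HSP90AB2P, also a copy of HSP90AB1, was at 89.9 ± 2.08 and 90.2 ± 2.15 CPM (log2FC 0.0031, 95% interval -0.086 to 0.092) and its groups overlapped. HSP90AB4P and HSP90AA6P stayed near 1 CPM with overlapping groups, and the HSP70 pseudogene HSPA7 had no count. Reads that fit parent and copy alike were counted on neither. Of all words of 50 bases in the GENCODE 29 transcripts of HSP90AB3P, 19.3% are also found in HSP90AB1. This share is 1.81% for HSP90AA4P with HSP90AA1 and 1.32% for HSP90B3P with HSP90B1. How many of the pseudogene counts came from the parent was not tested. With copy and parent summed, the log2 difference was -0.36 for HSP90AA1 with HSP90AA4P, -0.12 for HSP90AB1 with HSP90AB3P and -0.42 for HSP90B1 with HSP90B3P.

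**Figure D2:**
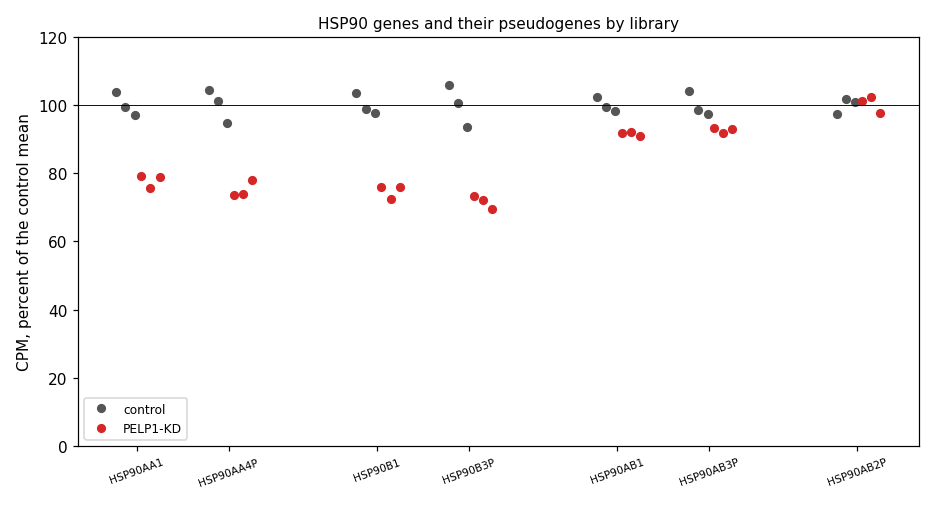
CPM of the HSP90 genes and of their 4 pseudogenes with the most counts in each library, as a percentage of the mean of the control libraries (y axis; grey, control; red, PELP1-KD; line at 100%). The PELP1-KD points of HSP90AA4P and HSP90B3P sit as far below 100% as those of HSP90AA1 and HSP90B1, while those of HSP90AB2P lie among the control points.

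Among the cytosolic HSP70 genes, the constitutive HSPA8 was lower and the inducible HSPA1A was higher. HSPA8, which also uncoats clathrin vesicles, was at 2998, 2897 and 2846 CPM in control and 2633, 2635 and 2621 CPM in PELP1-KD, 9.75% lower (log2FC -0.15, SE 0.023, edgeR adjusted p = 2.55e-05) and without overlap. HSPA1A was at 16, 15.8 and 15.5 CPM in control and 19.6, 21 and 21.5 CPM in PELP1-KD (log2FC 0.39, SE 0.073, edgeR adjusted p = 1.71e-04). Its near-identical neighbour HSPA1B was at 56.5, 59.1 and 57.7 CPM and at 56.8, 55.7 and 59.5 CPM. So every PELP1-KD library was above every control library in HSPA1A, while the groups overlapped in HSPA1B (log2FC -0.01, 95% interval -0.11 to 0.093, with a change of sign under library totals). Of the words of 50 bases in HSPA1A, 71.3% are also in HSPA1B, and reads that fit both were counted on neither, so the 2 genes cannot be fully told apart. Their sum was 72.5, 74.9 and 73.2 CPM in control and 76.5, 76.7 and 81 CPM in PELP1-KD, 6.17% higher. This sum also leaves out the reads that fit both genes, while 6.82% of the words in HSPA8 are found elsewhere. Its ratio to HSPA8 is therefore too low as a level. The ratio of this sum to HSPA8 was 0.0252 ± 0.000925 in control and 0.0297 ± 0.00105 in PELP1-KD (SD, n = 3; two-sided exact permutation p = 0.1, adjusted p = 0.133).

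HSPA8 carries triplets at both ends of the stretch chr11:123062179-123062366 (minus strand), and HSPA1A a pair in chr6:31815411-31815470 (plus strand), shown because these genes went in opposite directions. Capitals mark the matches, 230 and 55 bases before the start of HSPA8 and 106 before that of HSPA1A.
HSPA8: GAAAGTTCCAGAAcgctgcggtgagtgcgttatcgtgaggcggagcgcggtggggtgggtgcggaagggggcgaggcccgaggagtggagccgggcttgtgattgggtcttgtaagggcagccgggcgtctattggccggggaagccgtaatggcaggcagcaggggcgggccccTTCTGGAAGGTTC
HSPA1A: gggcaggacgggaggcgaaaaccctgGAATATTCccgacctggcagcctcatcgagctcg

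HSPA2, an HSP70 best known from testis, was at 2.54, 2.82 and 2.2 CPM in control and 4.16, 4.36 and 4.12 CPM in PELP1-KD, a fold of 1.67 (log2FC 0.73, SE 0.15, edgeR adjusted p = 5.57e-04), with groups apart. HSPA6, a strictly inducible HSP70, was at 0.414, 0.308 and 0.957 CPM and at 0.975, 1.08 and 0.85 CPM. Control replicate 3 was as high as the PELP1-KD libraries, and the log2FC of 0.82 did not pass (edgeR adjusted p = 0.0635). Without that library it was 1.43 (edgeR adjusted p = 0.00538), and no filter or limma also passed it. HSPA1L stayed near 1 CPM with overlapping groups. Of the HSP110 exchange factors, HSPH1 went from 324, 305 and 302 CPM to 267, 260 and 265 CPM, 15% lower (log2FC -0.23, SE 0.033, edgeR adjusted p = 8.52e-06). HSPA4L went the other way, from 83, 79.5 and 76 CPM to 95.1, 88.5 and 95.2 CPM (log2FC 0.23, SE 0.047, edgeR adjusted p = 5.13e-04). The groups did not overlap in either, whereas the third gene, HSPA4, was at 418 ± 5.96 and 421 ± 3.64 CPM (SD, n = 3; log2FC 0.012, 95% interval -0.048 to 0.071).

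**Figure D3:**
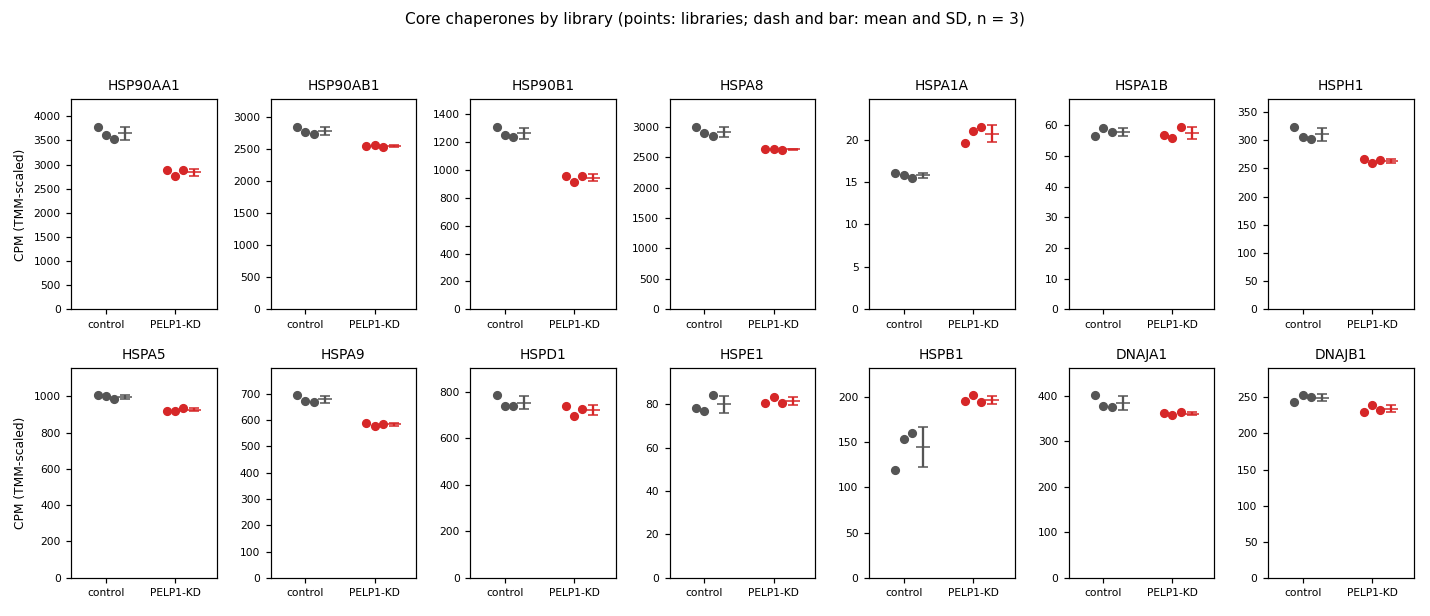
CPM of 14 core chaperones in each library, on y axes that start at 0 (grey, control; red, PELP1-KD; dash and bar, mean and SD, n = 3). HSP90AA1 and HSP90B1 show a clear step down, HSPA1A and HSPB1 a step up, and HSPA1B, HSPD1 and HSPE1 overlap between the groups.

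Of the 19 tested cytosolic members, 10 were lower (52.6%, against 24.2% of all tested genes). Another 5 were higher (26.3%, near the 22.7% of all tested genes). Of the 8 J-domain proteins among these members, 6 were lower and 2 were higher. DNAJB4 fell the most of these, from 40.4, 36.9 and 35.9 CPM to 25.3, 22.4 and 26.4 CPM (log2FC -0.61, SE 0.07, edgeR adjusted p = 4.56e-07). DNAJB2, whose ubiquitin-interacting motifs are known to hand clients to the proteasome, rose from 23.3, 23.2 and 21 CPM to 43.1, 42 and 40.6 CPM (log2FC 0.90, SE 0.062, edgeR adjusted p = 3.21e-10). These were the widest fall and the widest rise among the cytosolic members called, both without overlap. DNAJB5 rose less, from 14.8, 15 and 16.8 CPM to 17.5, 21.7 and 18.1 CPM (log2FC 0.30, edgeR adjusted p = 0.00819), and was at 0.20 and not past the threshold without PELP1-KD replicate 2 (edgeR adjusted p = 0.0734).

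The general HSP70 co-chaperones of the cytosol were lower by small steps. DNAJA1 was at 401, 377 and 374 CPM in control and 361, 357 and 363 CPM in PELP1-KD (log2FC -0.09, SE 0.032, edgeR adjusted p = 0.0251). DNAJB1, the main inducible partner of HSP70, was at 244, 253 and 251 CPM and at 230, 240 and 233 CPM (log2FC -0.088, SE 0.033, edgeR adjusted p = 0.0325). The groups did not overlap in either, yet the steps were near the spread of the libraries. The call of DNAJA1 was lost without control replicate 1 or without any of PELP1-KD replicates 1 to 3 (edgeR adjusted p from 0.0567 to 0.0845), and that of DNAJB1 without control replicates 2 or 3 or PELP1-KD replicates 1 or 3 (edgeR adjusted p from 0.0828 to 0.144) and under DESeq2 (adjusted p = 0.052). DNAJA2 was 8.12% lower, a call lost without control replicate 2 or PELP1-KD replicate 1 (edgeR adjusted p = 0.0642 and 0.0736). Scaling by library totals ended the calls of all 3. DNAJB6, known to suppress protein aggregation, and DNAJC7, which binds both HSP70 and HSP90, were 11.8% and 15.6% lower (edgeR adjusted p = 1.23e-04 and 6.66e-05).

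DNAJA1 holds a triplet just after its start (chr9:33025252-33025311, plus strand). DNAJB4 holds a pair in 1 of its 2 windows, 98 bases before the start (chr1:78004815-78004874, plus strand). They are shown as a member with a small fall and the cytosolic J-domain protein with the widest, with the matches in capitals.
DNAJA1: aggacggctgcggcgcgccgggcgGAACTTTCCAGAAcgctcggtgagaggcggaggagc
DNAJB4: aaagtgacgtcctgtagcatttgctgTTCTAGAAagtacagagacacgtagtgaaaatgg

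In the ER, 7 of 13 members were lower (53.8%, against 24.2% of all tested genes), 0 were higher (against 22.7%) and 6 did not pass, with a median log2FC of -0.11. HSPA5 (BiP), the HSP70 of the ER lumen, was at 1006, 1000 and 986 CPM in control and 920, 921 and 937 CPM in PELP1-KD, 7.13% lower (log2FC -0.11, SE 0.025, edgeR adjusted p = 0.00142). The groups did not overlap, but with library totals the log2FC was -0.057 and did not pass (edgeR adjusted p = 0.0572). HSPA13, a microsomal HSP70, went from 191, 173 and 168 CPM to 139, 133 and 143 CPM (log2FC -0.36, SE 0.045, edgeR adjusted p = 1.57e-06). DNAJC3, a BiP co-chaperone that also inhibits the stress kinase PERK, went from 70.9, 67.8 and 67 CPM to 54.9, 52.1 and 53.7 CPM (log2FC -0.36, SE 0.048, edgeR adjusted p = 4.44e-06). The 3 steps were each wider than the spread of the libraries, and those of HSPA13 and DNAJC3 were 22% and 21.9%, close to that of HSP90B1 (25.4%).

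DNAJC10, an ER disulphide reductase, was 15.6% lower, and DNAJB12 and DNAJB14, J-domain proteins of the ER membrane, were 16.3% and 17.2% lower. DNAJB9 and DNAJB11, both BiP partners induced by ER stress, did not pass: DNAJB9 was at 16.5 ± 0.529 and 16 ± 0.787 CPM, and DNAJB11 at 121 ± 2.54 and 118 ± 4.7 CPM (SD, n = 3). The 95% intervals of their log2FC ran from -0.21 to 0.11 and from -0.12 to 0.048. DNAJC1, DNAJC14, DNAJC16 and DNAJC18 also had overlapping groups, with a log2FC between -0.076 and 0.12.

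An ER stress element was searched as CCAAT, any 9 bases and CCACG on both strands. It was in 0.0769% of the 35116 windows (27 windows) and, among the members, in HSP90B1 and HSPA5. The whole HSP90B1 window (chr12:103930160-103930459, plus strand) is printed because it holds 2 matches, on opposite strands, and HSPA5 is shown around its single match (chr9:125241371-125241430, minus strand). Capitals mark the elements, which begin 194 and 89 bases before the start in HSP90B1 and 66 bases before it in HSPA5. Both genes with the element were lower, as were 5 of the other 10 ER members with a window, against 24.2% of all tested genes. The element was picked after the values were seen, and 2 holders are too few for a comparison.
HSP90B1: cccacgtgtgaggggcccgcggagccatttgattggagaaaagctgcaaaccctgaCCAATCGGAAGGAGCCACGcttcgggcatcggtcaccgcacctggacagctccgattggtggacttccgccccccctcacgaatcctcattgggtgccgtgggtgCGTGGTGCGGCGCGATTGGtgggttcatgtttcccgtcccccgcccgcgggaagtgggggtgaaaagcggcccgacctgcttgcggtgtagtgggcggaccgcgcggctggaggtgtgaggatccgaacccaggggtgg
HSPA5: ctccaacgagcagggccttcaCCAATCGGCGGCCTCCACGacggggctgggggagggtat

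Of 9 mitochondrial members, 2 were lower (22.2%, near the 24.2% of all tested genes) and 1 was higher (11.1%, against 22.7%). The other 6 did not pass (66.7%, against 53.1% of all tested genes). HSPA9 (mortalin), the HSP70 that pulls proteins into the matrix, went from 695, 672 and 669 CPM to 588, 577 and 587 CPM, 14% lower and without overlap (log2FC -0.22, SE 0.027, edgeR adjusted p = 1.69e-06). DNAJC19, the J-domain protein of the same import motor, was 21% lower (19.2 ± 0.829 and 15.2 ± 0.556 CPM, SD, n = 3; edgeR adjusted p = 9.49e-04). Its paralog DNAJC15 was at 55.7 ± 4.23 and 50.8 ± 4.18 CPM and its groups overlapped. The ratio of DNAJC15 to DNAJC19 was 2.92, 3.04 and 2.73 in control and 3.27, 3.14 and 3.62 in PELP1-KD (two-sided exact permutation p = 0.1, adjusted p = 0.133).

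The chaperonin pair HSPD1 and HSPE1, which form the matrix folding chamber and its lid, overlapped between the groups. HSPD1 was at 785, 737 and 737 CPM in control and 739, 697 and 724 CPM in PELP1-KD (log2FC -0.064, 95% interval -0.13 to -8e-05, edgeR adjusted p = 0.0933). HSPE1 was at 78.4, 77.1 and 84.2 CPM and at 80.8, 83.5 and 80.4 CPM (log2FC 0.031, 95% interval -0.065 to 0.13). Their ratio, 9.44 ± 0.638 in control and 8.83 ± 0.427 in PELP1-KD (SD, n = 3), did not differ beyond the spread (two-sided exact permutation p = 0.3). In GENCODE 29 the HSPE1 locus lies inside that of HSPD1 on the other strand, and whether the counting used strand is not given in the sources used here. DNAJC30 rose from 10.5, 11.7 and 12.3 CPM to 13.6, 13.9 and 13.6 CPM (log2FC 0.26, edgeR adjusted p = 0.0209), a call lost under DESeq2 (adjusted p = 0.0824) and without control replicate 1 or PELP1-KD replicate 2 (edgeR adjusted p = 0.0797 and 0.0563). DNAJA3, DNAJC11 and DNAJC28 had overlapping groups.

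The HSPD1 stretch chr2:197500031-197500090 (minus strand) is printed as a member that holds triplets and did not pass the test. Its capitals are 2 overlapping triplets, the first 245 bases before the start. Of the 2 HSPD1 windows, 1 holds triplets.
HSPD1: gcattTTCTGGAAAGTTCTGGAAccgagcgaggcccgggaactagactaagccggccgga

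Of the members that work at the ribosome or in the nucleus, 3 of 6 were lower (50%, against 24.2% of all tested genes) and 0 were higher (against 22.7%). DNAJC2 and HSPA14 form the ribosome-associated complex, which meets the nascent chain at the tunnel exit. DNAJC2 went from 49.9, 56.4 and 48.2 CPM to 37.9, 34.1 and 34.2 CPM (log2FC -0.55, SE 0.065, edgeR adjusted p = 6.78e-07). HSPA14 was at 85.5 ± 1.21 CPM in control and 69.3 ± 0.849 CPM in PELP1-KD (SD, n = 3), 19% lower (edgeR adjusted p = 8.57e-06). In both partners every PELP1-KD library lay below every control library. DNAJC8, associated with the spliceosome, was 14.7% lower, while DNAJC9, a histone co-chaperone, DNAJC17 and DNAJC21 overlapped between the groups.

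Of the 3 tested members of vesicle traffic, 2 were lower (66.7%, against 24.2% of all tested genes). DNAJC13, which acts with HSPA8 on endosomes, went from 87, 85 and 86.6 CPM to 60.9, 60.7 and 64.1 CPM (log2FC -0.48, SE 0.045, edgeR adjusted p = 3.43e-08). DNAJC6 (auxilin), which recruits HSPA8 to strip clathrin coats, was 30.4% lower (17.6 ± 0.402 and 12.3 ± 0.896 CPM, SD, n = 3; edgeR adjusted p = 2.46e-05). DNAJC5, the cysteine-string protein of synaptic and secretory vesicles, was at 210 ± 3.17 and 213 ± 5.82 CPM with a 95% interval of -0.051 to 0.091 for its log2FC. The first 2 genes lay apart between the groups, and DNAJC5 did not.

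Of the members named as small HSPs, 3 could be tested. HSPB8 and HSPB1 were higher (66.7% of the 3, against 22.7% of all tested genes). HSPB11, which is described with the other members, did not pass (log2FC -0.053). HSPB8, which works with BAG3 in chaperone-assisted autophagy, rose from 5.79, 5.81 and 5.63 CPM to 12.4, 11 and 10.5 CPM, a fold of 1.96 (log2FC 0.97, SE 0.11, edgeR adjusted p = 2.40e-07). HSPB1, an abundant small HSP that also binds actin, was at 119, 154 and 160 CPM in control and 195, 202 and 194 CPM in PELP1-KD (log2FC 0.45, SE 0.067, edgeR adjusted p = 1.46e-05). The groups did not overlap in either gene, but control replicate 1 stood below the other control libraries in HSPB1, and without it the log2FC was 0.33 (edgeR adjusted p = 2.09e-11). HSPB6 was at 0.225 to 0.308 CPM in control and 0.328 to 0.513 CPM in PELP1-KD and was too low to test. BAG3, the partner of HSPB8, was at 91.1 ± 4.23 and 81.9 ± 4.16 CPM (SD, n = 3; log2FC -0.15, edgeR adjusted p = 0.0134), so it went the other way.

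The windows of HSPB8 and HSPB1 hold pairs but no triplet. The HSPB8 stretch (chr12:119178843-119178942, plus strand) has its pairs 88 bases before and 4 bases after the start, and the pair of HSPB1 (chr7:76302465-76302524, plus strand) is 182 bases before it.
HSPB8: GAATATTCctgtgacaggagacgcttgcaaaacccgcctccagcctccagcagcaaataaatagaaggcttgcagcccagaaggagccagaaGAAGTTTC
HSPB1: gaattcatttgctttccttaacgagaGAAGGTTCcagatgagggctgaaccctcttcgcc

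The other tested members have roles that are less well known or lie outside protein folding. DNAJC27, a small GTPase with a J domain, had the widest fall of all members (log2FC -0.71, SE 0.1, edgeR adjusted p = 1.19e-05), from 9.52 ± 0.494 to 5.83 ± 0.161 CPM (SD, n = 3). DNAJC25 was 21.2% lower. DNAJC22 was higher, at 4.26, 4.22 and 5.01 CPM in control and 6.16, 5.34 and 6.16 CPM in PELP1-KD (log2FC 0.39, edgeR adjusted p = 0.0163). That call was lost under DESeq2 (adjusted p = 0.0876) and without control replicate 2 or PELP1-KD replicates 1 or 3 (edgeR adjusted p from 0.0542 to 0.0737). DNAJC4, DNAJC24, HSPA12A and HSPB11, the last a part of intraflagellar transport, did not pass.

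Of the 15 members not tested, 7 had no count in any library: DNAJB3, DNAJB8, HSPA7, HSPB2, HSPB3, HSPB7 and HSPB9 (DNAJB3 is annotated as a pseudogene in GENCODE 29). At this depth 0 counts allow a level of up to 0.127 to 0.177 CPM, from 3 counts per library, a limit that covers counting error only. DNAJA4, DNAJB7, DNAJC5B, DNAJC5G, DNAJC12 and HSPA12B had at most 0.103 CPM in any library. DNAJB13, known from sperm flagella, had 0 counts in the 3 control libraries and was at 0.103, 0.0469 and 0.255 CPM in PELP1-KD.

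Per length, the chaperones spanned a wide range of levels. With the exon lengths of GENCODE 29, HSPA8 had the highest level in control cells (1080 ± 28.6 RPKM, SD, n = 3), followed by HSP90AB1 (933 ± 20.7) and HSP90AA1 (905 ± 31.6). The last 2 did not differ beyond their SDs. In PELP1-KD cells they were at 855 ± 5.76 and 706 ± 18.2 RPKM, farther apart than their SDs. The order between genes depends on the exon length used, and the SDs cover neither that nor the reads left out as multiply aligned. By CPM, HSP90AA1 was above HSP90AB1 in control (means 3646 and 2782) and in PELP1-KD (means 2843 and 2549). HSP90B1 came next per length (441 ± 13.8 RPKM in control), then HSPD1 (293 ± 10.8), the pseudogene HSP90AB3P (282 ± 10.4) and HSPA5 (255 ± 2.65). HSPD1 and HSP90AB3P overlapped within their SDs. DNAJA1 (161 ± 6.23) was the highest J-domain protein, followed by DNAJB1 (102 ± 1.85), and HSPA9 (144 ± 3.07) and HSPB1 (136 ± 21.1) overlapped in level. HSPA1B was at 22.9 ± 0.522 RPKM, a level that leaves out its reads shared with HSPA1A. The 32 tested members with the higher mean CPM had 20 lower and 2 higher calls, and the 33 with the lower mean CPM had 9 and 7. Among all tested genes, at any level, 24.2% were lower and 22.7% higher.

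**Figure D4:**
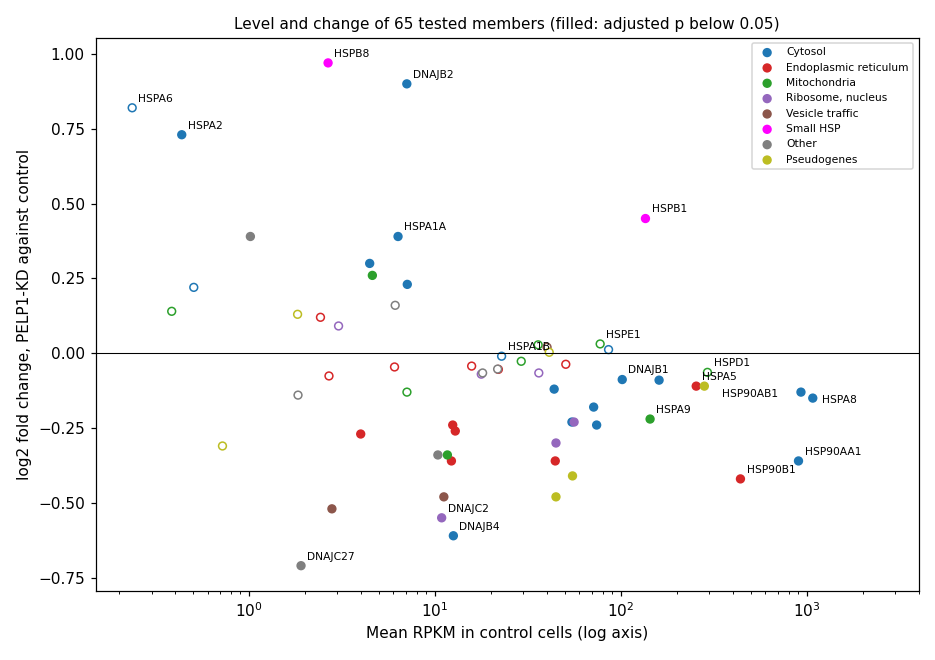
Mean RPKM in control cells (x axis, log scale) and log2 fold change of PELP1-KD against control (y axis) for the 65 tested members, coloured by compartment or role; filled points have an adjusted p below 0.05. The 9 members with the highest RPKM all lie below 0 on the y axis, and the 4 highest points are HSPB8, DNAJB2, HSPA6 and HSPA2.

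Across the members, 23 of their 83 promoter windows held a heat shock element pair (27.7%), against 13.5% of all windows, and these belonged to 22 of the 64 members with a window. Of the 18 of these that were tested, 9 were lower (50%) and 4 higher (22.2%). Of the 36 tested members whose windows lacked the pair, 16 were lower (44.4%) and 4 higher (11.1%). Among all tested genes, 24.2% were lower and 22.7% higher. The median log2FC was -0.089 with the pair and -0.073 without it. The 7 members with a triplet were DNAJA1, DNAJB6, HSP90AA1, HSP90AB1, HSPA6, HSPA8 and HSPD1, of which 5 were lower (71.4%) and 0 higher. The E-box CACGTG, a palindrome known to bind Myc and other factors, was in 8 of the members' 83 windows (9.64%), near the 7.26% of all windows. Of its 7 tested holders, 3 were lower (42.9%: HSP90B1, HSPA9 and DNAJC8), 0 were higher, and DNAJB9, DNAJC16, HSPD1 and HSPE1 did not pass. These motifs were chosen after the values were seen, and a match shows letters, not binding.

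Genes that work with the chaperones were taken from 4 lists, whose counts stand beside the 24.2% lower and 22.7% higher of all tested genes. The heat shock factor HSF1 was at 115 ± 6.37 and 126 ± 5.37 CPM (SD, n = 3; log2FC 0.13, edgeR adjusted p = 0.0285), a call lost without control replicate 1, control replicate 3 or PELP1-KD replicate 2. HSF2 was at 38 ± 1.67 and 40.4 ± 3.81 CPM and did not pass. Of 24 tested cytosolic co-chaperones, 10 were lower and 5 higher, with a median log2FC of -0.075. With library totals in place of TMM these counts were 6 and 9, so the balance of that list depends on the scaling, and without control replicate 2 or 3 there were 3 higher calls. PTGES3, a co-chaperone that holds HSP90 in its closed state, went from 551 ± 12.4 to 400 ± 20.9 CPM (SD, n = 3; log2FC -0.46, edgeR adjusted p = 8.30e-10). PPID, a cyclophilin that binds HSP90, was 20.9% lower. TOMM34 and PPP5C, which also bind HSP90 through TPR domains, were 15.7% and 13.6% higher.

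Among 20 ER partners, 11 were lower and 3 higher, with the same median log2FC as the ER members (-0.11). CANX (calnexin), a lectin chaperone of glycoproteins, went from 2130 ± 102 to 1584 ± 18.9 CPM (SD, n = 3; log2FC -0.43, edgeR adjusted p = 1.81e-10). SEL1L, of the ER degradation ligase, and P4HB, a disulphide isomerase, were 21.3% and 12.8% lower, whereas SDF2L1, which acts with DNAJB11 and DNAJC3, was 42.2% higher (24.1 ± 2.99 and 34.3 ± 0.393 CPM). Among 13 tested mitochondrial partners, 1 was lower and 4 were higher, with a median log2FC of 0.041. The 4 were the proteases HTRA2, CLPP and LONP1 (19.1%, 17.7% and 8.59% higher) and the import motor subunit TIMM44 (11.6% higher). The lower one was TIMM23, the import channel (10.1% lower), named after its value was seen, a call lost with library totals or without PELP1-KD replicate 3. In TIMM44, TIMM23, HSPA9 and DNAJC19, all of the import machinery, the direction was thus not shared.

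**Figure D5:**
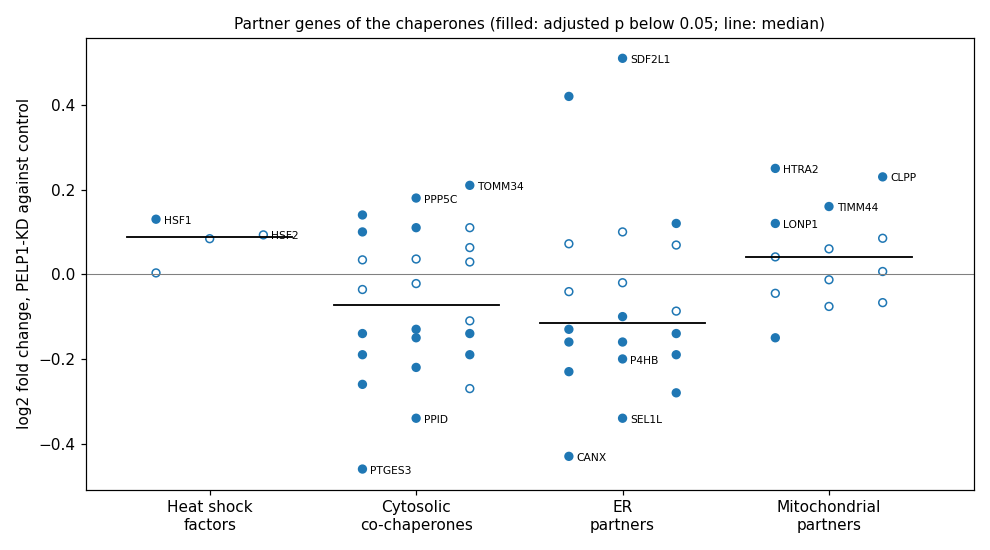
Log2 fold change of PELP1-KD against control (y axis) for the tested partner genes in 4 lists; points are genes, filled where the adjusted p is below 0.05, and lines are list medians. PTGES3 and CANX lie lowest and SDF2L1 highest, and the list medians run from -0.11 (ER partners) to 0.088 (heat shock factors).

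Immediate-early genes, which respond to handling of cultures, moved in both directions. Of 7 tested, 3 were higher (42.9%, against 22.7% of all tested genes) and 3 were lower (42.9%, against 24.2%). ATF3 and JUNB rose (log2FC 0.57 and 0.43) and EGR1 and JUN fell (log2FC -0.78 and -0.24), each with edgeR adjusted p-values of 4.37e-04 or less. DUSP1 was the third higher gene and FOS the third lower. The part of immediate-early genes in the chaperone differences was not tested.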

How the data were processed

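Stranded mRNA libraries were made from the 3 control and 3 PELP1-KD cultures and read for 50 bases from a single end on an Illumina HiSeq. The authors deposited raw counts for each library, 1 whole number per gene symbol. Their processing notes name bcl2fastq, TopHat2, SAMtools, HTSeq and the genome build hg19, with versions not given in the sources used here. Multiply aligned reads (32.5% to 32.9% of the total) were assigned to no gene, which lowers the counts of genes that have close copies. Rows that name no gene held 41% to 41.4% of the total and were left out.

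Groups and replicate numbers came from the sample labels. The members and all gene lists were chosen with earlier results of these data known. Counts were analysed in R 4.3.3 with edgeR 4.0.16: filterByExpr with a minimum of 10 counts, TMM scaling (factors 0.978 to 1.02), and the quasi-likelihood test of the 2 groups with Benjamini-Hochberg adjustment over 12796 genes at 0.05. The script was tested on simulated counts. Replicates of a group differed by more than sampling noise (chi-square per degree of freedom 1.47 to 4.11). CPM used TMM-scaled library sizes, and RPKM the exon length of coding transcripts in GENCODE 29, which matched all 80 members. Ratios of paralogs were tested by exact permutation of the libraries, two-sided.

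Promoter windows came from RefSeq on GRCh38.p14, with 64 of 80 members matched by symbol and 14 of these with several starts. Coordinates refer to that build and not to hg19. Values in every library were given for 14 core chaperones whatever their change and for the 10 lower and 10 higher members of lowest p-value past an adjusted p of 0.05 (9 were higher). Of the partner lists, HSF1, HSF2 and up to 4 called genes with the lowest p-value were named. HSPA6, DNAJB13, BAG3, TIMM23, TRAP1, FOS and DUSP1 and the promoter motifs were picked after their values were seen. The alternatives were RLE size factors, library totals, voom (limma 3.58.1), DESeq2 1.42.0, all genes unfiltered, at least 10 counts in every library, a replicate block and leaving out each library in turn.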

Additional observations from a re-analysis of the deposited data

How the results depend on the processing

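The count of lower members ran from 24 (library totals) to 31 (replicate block) and that of higher members from 7 (DESeq2) to 11 (no filter) over all alternatives, with 29 and 9 in the report. Leaving out single libraries gave 26 to 29 lower and 7 to 10 higher members. Over all genes, edgeR with TMM called 3103 lower and 2904 higher genes and with library totals 2418 and 3817, with a median log2FC of 0.051. For the members that scaling gave 24 lower and 9 higher, and it ended the calls of DNAJA1, DNAJA2, DNAJB1, HSPA5 and HSP90AB3P, turned HSPA1B to 0.039, put 1 member (HSPB8) beyond 2-fold, and gave 6 lower and 9 higher cytosolic co-chaperones and 0 lower mitochondrial partners. Without a single library HSPA1B ran from -0.038 to 0.012, above 0 without control replicate 2 (0.0063) or PELP1-KD replicate 2, with an adjusted p of 0.531 or more in these fits. With DESeq2, 0 mitochondrial members and 0 of the other members were higher. With no filter 1 member (DNAJB13) was beyond 2-fold and 2 of the other members were higher. Over fits without a single library, members beyond 2-fold ran from 0 to 1 (HSPA6 without control replicate 3, HSPB8 without PELP1-KD replicate 3), higher mitochondrial members from 0 to 1, higher members of the other group from 0 to 1, higher heat shock factors from 0 to 1, higher cytosolic co-chaperones from 3 to 5 and lower mitochondrial partners from 0 to 1. PELP1 kept its direction and call in all of them. The cause of these shifts was not tested. Deviations from the group means correlated at 0.0388, 0.0653 and -0.0784 between same-numbered libraries, so no strong shared effect of replicate number was seen. Whether the libraries were paired is not stated in the labels. With the replicate block, 3335 genes were lower and 3140 higher over all genes, against 3103 and 2904 without it. Among the members, that block gave 31 lower and 9 higher, HSPD1 passed (edgeR adjusted p = 0.0419) and 4 mitochondrial members were lower. Depth limits the 15 members that were too low to test, and 3 libraries a group limit all small steps.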
